A study of Mus musculus with 6 samples.

Results

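The nuclear genes of oxidative phosphorylation were examined in RNA sequencing data of adult-born cells that were sorted out of mouse olfactory bulbs. Members were all genes of the raw count table whose symbol begins with Nduf, Uqcr, Cox4 to Cox8 or Atp5, or is Sdha, Sdhb, Sdhc or Sdhd, without symbols that hold "-ps". The rule used no measured value and gave 93 of 55573 genes, of which 44 belong to complex I, 4 to complex II, 8 to complex III, 20 to complex IV and 17 to complex V. A gene entered the tests if it reached 1 CPM (count per 1e+06 counts) in at least 2 of the 6 libraries, and 87 members did so. CPM values of single genes below refer to library sizes scaled by TMM, the trimmed mean of M-values. The study asked how the endogenous electrical activity of adult-born juxtaglomerular neurons shapes their development. Lentiviral suspensions were injected into the rostral migratory stream (RMS), the path along which neuroblasts reach the bulb, of male 3-month-old C57BL/6 mice. Control cells expressed the Ca2+ indicator Twitch-2B with a nuclear mCherry, and cells of the other groups expressed either potassium channel, Kv1.2 or Kir2.1, along with Twitch-2B, so that every group carried the indicator. Bulbs were taken 9 days after the injection, cells were sorted by their Twitch-2B signal, and each group had 2 libraries, each from the pooled bulbs of 2 mice. P-values therefore measure the spread between such pools, and the names Kv1.2 and Kir2.1 below stand for what the labels say of a library.

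Oxidative phosphorylation couples the transfer of electrons along complexes I to IV of the inner mitochondrial membrane to the pumping of protons, and complex V, the ATP synthase, uses the proton gradient to make ATP. Complex I (NADH dehydrogenase) and complex II (succinate dehydrogenase) pass electrons to ubiquinone, complex III passes them on to cytochrome c, and complex IV (cytochrome c oxidase) reduces oxygen. Most subunits are encoded in the nucleus and imported, while a few core subunits of complexes I, III, IV and V come from mitochondrial DNA, which has no gene for complex II. Neurons cover most of their energy demand by this pathway.

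The libraries held 8871595 to 13632970 counts. Markers of neuroblasts and neurons (15 genes) summed to 0.0933 and 0.134% of the counts in the control libraries and to 0.000535 to 0.0108% in the 4 channel libraries, in which 4 to 10 of the 15 genes had no count. Markers of microglia (15 genes, none at 0 in any library) summed to 15.5% in control replicate 1 and 16.4 to 22.1% in the channel libraries, but to 3.58% in control replicate 2, which thus stood apart from the other 5. Erythroid markers made up 0.122% of its counts against 0.00137 to 0.0900% elsewhere, and astrocyte markers 0.288% against 0.0220 to 0.0994%. In the channel libraries Slc1a3 held most astrocyte marker counts, as in Kv1.2 replicate 1 with 4279 of 4573. Of the 9 astrocyte markers tested, 7 (77.8%) were higher in both control libraries than in all channel libraries, against 13.8% of genes tested. For oligodendrocyte markers it was 3 of 7 (42.9%). Among markers of blood and macrophages, Mrc1 reached 536 CPM in Kir2.1 replicate 1 and Nkg7 112 CPM in Kv1.2 replicate 1. Kcna2, the mouse gene of Kv1.2, had 0.299 and 54 CPM (control), 1.92 and 0.407 CPM (Kv1.2), and 0.272 and 0.0906 CPM (Kir2.1), and Kcnj2, the gene of Kir2.1, had 8.66 and 10.7 CPM (control), 17.7 and 0.0814 CPM (Kv1.2), and 5.8 and 28.3 CPM (Kir2.1). Levels of these genes did not separate the groups as labelled. Per the study's methods the Kv1.2 construct was made from human and the Kir2.1 construct from mouse cDNA, and the sources used here do not say whether transcripts of the constructs were counted under the mouse genes. The study also measured both genes by quantitative PCR and Kv1.2 by immunostaining, which were not analysed here.

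Promoter sequence is shown for members that differ in the results below. RefSeq promoter windows of GRCm38.p6, from 250 bases before to 50 after a gene's start, were matched by symbol for 74 of the 93 members. The stretches below are 120 bases long, read 5′ to 3′ towards the gene, and end before the first base of the gene in both RefSeq and GENCODE. Capitals mark the letters of a searched motif. Ndufa1 (complex I), Uqcr11 (complex III), Cox8a (complex IV) and Atp5k (complex V) had the smallest pooled p-value among the matched members of their complexes and were lower in all channel libraries. Sdhd also had the smallest pooled p-value of its complex (II), but it was not lower in all channel libraries and its groups overlapped. Ndufaf7, an assembly factor of complex I, was 1 of 3 members with both control libraries below all channel libraries. The others, Ndufa9 and Ndufaf3, are not shown.
Ndufa1, chrX:37191239-37191358, minus strand: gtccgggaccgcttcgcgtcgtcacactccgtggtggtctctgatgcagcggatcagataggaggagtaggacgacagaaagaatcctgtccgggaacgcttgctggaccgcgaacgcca
Uqcr11, chr10:80406831-80406950, minus strand: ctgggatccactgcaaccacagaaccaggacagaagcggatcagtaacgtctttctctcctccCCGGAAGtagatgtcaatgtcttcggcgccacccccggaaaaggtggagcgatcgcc
Cox8a, chr19:7217617-7217736, minus strand: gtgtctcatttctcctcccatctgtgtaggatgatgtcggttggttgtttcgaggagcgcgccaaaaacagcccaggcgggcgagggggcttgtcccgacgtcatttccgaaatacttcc
Atp5k, chr5:108434449-108434568, minus strand: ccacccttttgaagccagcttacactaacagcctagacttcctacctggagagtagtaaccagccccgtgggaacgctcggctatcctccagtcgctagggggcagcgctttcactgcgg
Sdhd, chr9:50603850-50603969, minus strand: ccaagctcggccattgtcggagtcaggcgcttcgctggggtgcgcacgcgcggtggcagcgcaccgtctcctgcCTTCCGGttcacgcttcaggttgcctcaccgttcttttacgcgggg
Ndufaf7, chr17:78937015-78937134, plus strand: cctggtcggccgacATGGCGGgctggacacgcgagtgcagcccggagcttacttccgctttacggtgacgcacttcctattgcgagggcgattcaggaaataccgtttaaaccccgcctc
None of the motifs was shared by all of these 6 windows. On both strands of the whole windows, the letters GCATGCGC, a core of the NRF1 site, occurred in 16.2% of the 74 members against 2.80% of 27025 genes in the table. CCGGAAG, an ETS core, occurred in 23.0% against 9.12%, ATGGCGG, a YY1 core, in 14.9% against 4.19%, TCAAGGTCA, an element of estrogen-related receptors, in 2.7% against 0.407%, and TATAAA in 9.46% against 14.2%. No motif contains another, although the NRF1 core can overlap itself on the 2 strands. Among the 36 matched members with both control libraries above all channel libraries, the NRF1 core stood in 11.1% and the ETS core in 22.2% of windows, and among the 35 other matched members tested in 22.9 and 25.7%. Windows of the members had a median GC content of 57.8%, against 52.7% over the table.

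Counts of the 93 genes together made up 3.67 and 9.89% of the control, 2.53 and 2.79% of the Kv1.2 and 2.27 and 2.05% of the Kir2.1 libraries. Both control libraries were above all channel libraries, but control replicate 2 was further from control replicate 1 than replicate 1 was from the channel libraries. Counting error was small beside these differences, as the widest 95% Wilson interval of such a share, which covers counting error only, reached 0.0190 percentage points to each side. By complex, the share of complex IV was 1.09 and 3.66% (control), 0.686 and 0.738% (Kv1.2), and 0.563 and 0.483% (Kir2.1). Complex I held 1.39 and 3.69%, 1.05 and 1.14%, and 0.958 and 0.812% in the same order, so that these 2 complexes had the largest shares in every library. Complex II went another way, with 0.0729 and 0.0785% (control), 0.102 and 0.110% (Kv1.2), and 0.0708 and 0.108% (Kir2.1), and its groups overlapped. With 2 libraries against 2, an exact permutation test cannot give a p-value below 0.33, so no test was made on shares. In these bulk libraries fewer cells of a type and less RNA per cell cannot be told apart.

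**Figure D1:**
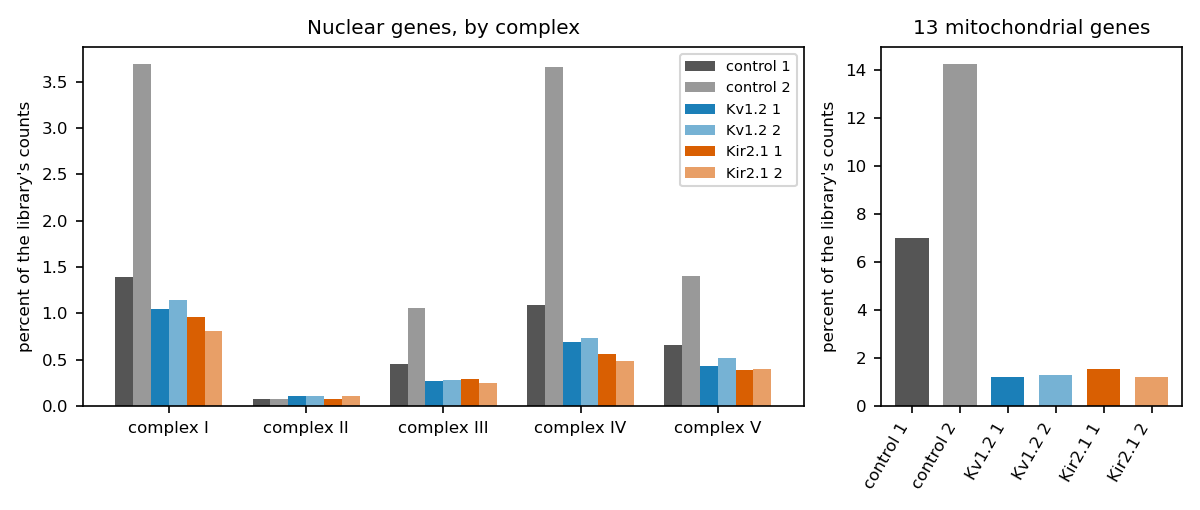
Share of each library's counts in nuclear oxidative phosphorylation genes by complex (left, percent) and in the 13 mitochondrially encoded genes (right, percent). Each bar is 1 library, numbered by replicate. Control replicate 2 has the tallest bar in every panel group except complex II, and the channel libraries lie below both controls in complexes I, III, IV and V.

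Nearly all members were detected throughout. Of the 93 genes, 81 (87.1%) reached 1 CPM in all 6 libraries, against 34.6% of the 12275 genes tested. The 6 that fell under the minimum all belong to complex IV. Cox8b and Cox8c, the muscle and testis forms of subunit 8, and Ndufa4l2, a form of Ndufa4 known to be induced by hypoxia, had no count in any library, and a count of 0 in 66128258 allows a level of up to 0.0454 CPM. Cox4i2, the lung form of subunit 4, had 3 counts in all. Cox6b2 and Cox7b2, both known from testis, had 1 and 170 and 1 and 65 counts in control replicates 1 and 2 and 0 in every channel library.

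Levels of different genes were ranked per length, in the deposited TPM, a level scaled by gene length and library. The median over the 6 libraries was highest for Cox6a1 with 2484 TPM in complex IV, Uqcr11 with 1982 TPM in complex III and Ndufc2 with 1830.0 TPM in complex I, all small membrane subunits. Atp5k led complex V with 594 TPM and Sdhd led complex II with 469.8 TPM. These medians pool all groups, and the first place differed between libraries. In the control libraries Ndufa1 had 3452 and 10006 TPM against 1855 and 1869 TPM for Ndufc2, and Sdhb had 377 and 348 TPM against 255 and 220.1 TPM for Sdhd, which led complex II in all 4 channel libraries. Cox8a exceeded Cox6a1 in control replicate 1, with 4963 against 2739 TPM. Lowest among the tested members were Ndufaf1, an assembly factor, with 0.536 TPM, Sdhc with 2.87 TPM, Uqcrc1 with 43.9 TPM, Cox7a1 with 0.314 TPM and Atp5sl with 2.31 TPM. Deposited gene lengths were over 3 times the principal GENCODE transcript for 14 members, whose TPM is then lower than per base of that transcript. Per kilobase of the principal transcript, Atp5j and Sdhb took the first place in complexes V and II.

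In edgeR's quasi-likelihood test of all 6 libraries, 73 of the 87 members tested had a log2 fold change against the control below 0 for Kv1.2, and so did 73 for Kir2.1. Their median log2 fold change was -1.17 for Kv1.2 and -1.66 for Kir2.1, beside -0.12 and 0.04 over all 12275 genes tested. At an unadjusted p under 0.05, 20 members were lower in Kv1.2 (23.0%, where 8.81% of all genes were) and 39 in Kir2.1 (44.8%, against 6.15%). None was higher in either comparison, against 3.23 and 3.25% of all genes. These shares of all genes also apply to the counts by complex and role below in fits of all 6 libraries. The comparisons share the control libraries, so their values are not independent of each other. After Benjamini-Hochberg adjustment over all genes tested no member passed a p of 0.05 in either, nor did any other gene (0%), and the smallest adjusted p of a member was 0.394 for Kv1.2 and 0.460 for Kir2.1. DESeq2 called 1 member for Kv1.2 and 11 for Kir2.1 at an adjusted p under 0.05, where it called 1286 and 964 genes in all. Over both channel groups against the control, the median was -1.35 beside -0.19 over all genes, 38 members were lower and 0 higher at an unadjusted p under 0.05, against 10.5 and 2.85% of all genes, and 0 passed the adjusted threshold, as did 0.0244% of all genes.

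Both control libraries lay above all 4 channel libraries in 42 of the 87 members (48.3%), which was so for 13.8% of all genes tested. The opposite order occurred in 3 members (3.45%), against 8.52% of genes. Control replicate 2 was the highest of the 6 libraries in 66 members (75.9%, against 21.7% of genes), and its log2 CPM exceeded that of control replicate 1 by a median of 1.48, beside 0.02 over all genes. Replicates of the channel groups lay closer, with medians of 0.10 for Kv1.2 and 0.18 for Kir2.1. Control replicate 1 alone was above every channel library in 45 members (51.7%, against 25% of genes). Without control replicate 2, the member medians were -0.32 for Kv1.2 and -0.74 for Kir2.1, beside 0.13 and 0.22 over all genes, and 6 and 28 of 85 members were lower at an unadjusted p under 0.05, as were 2.9 and 2.01% of all genes. Without control replicate 1 these counts were 52 and 57 of 87, against 5.19 and 4.21% of genes. The counts against the control also fell when any 1 channel library was left out, even one outside the comparison, while the medians changed little. Such fits estimate the shared spread from fewer libraries, and the part of this in the counts was not tested. For Kv1.2, 0 members were lower without its replicate 1 or 2, against 5.27 and 5.25% of genes, with medians of -1.28 and -1.27. Without Kir2.1 replicate 1 or 2, 6 of 87 and 7 of 86 were lower for Kv1.2, both under the 8.69 and 8.21% of genes in the same fits, with medians of -1.21 and -1.16. For Kir2.1, 6 of 87 and 10 of 86 were lower without its replicate 1 or 2, against 4.48 and 3.04% of genes, with medians of -1.71 and -1.83. Over both channel groups the count was 17 of 85 without control replicate 2 (3.33% of genes), and 21 of 87 and 21 of 86 without Kv1.2 replicate 1 or 2 (9.53 and 9.55% of genes). Control replicate 2 was also the library with the lowest share of microglia markers, and the part of that difference in these results was not tested.

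**Figure D2:**
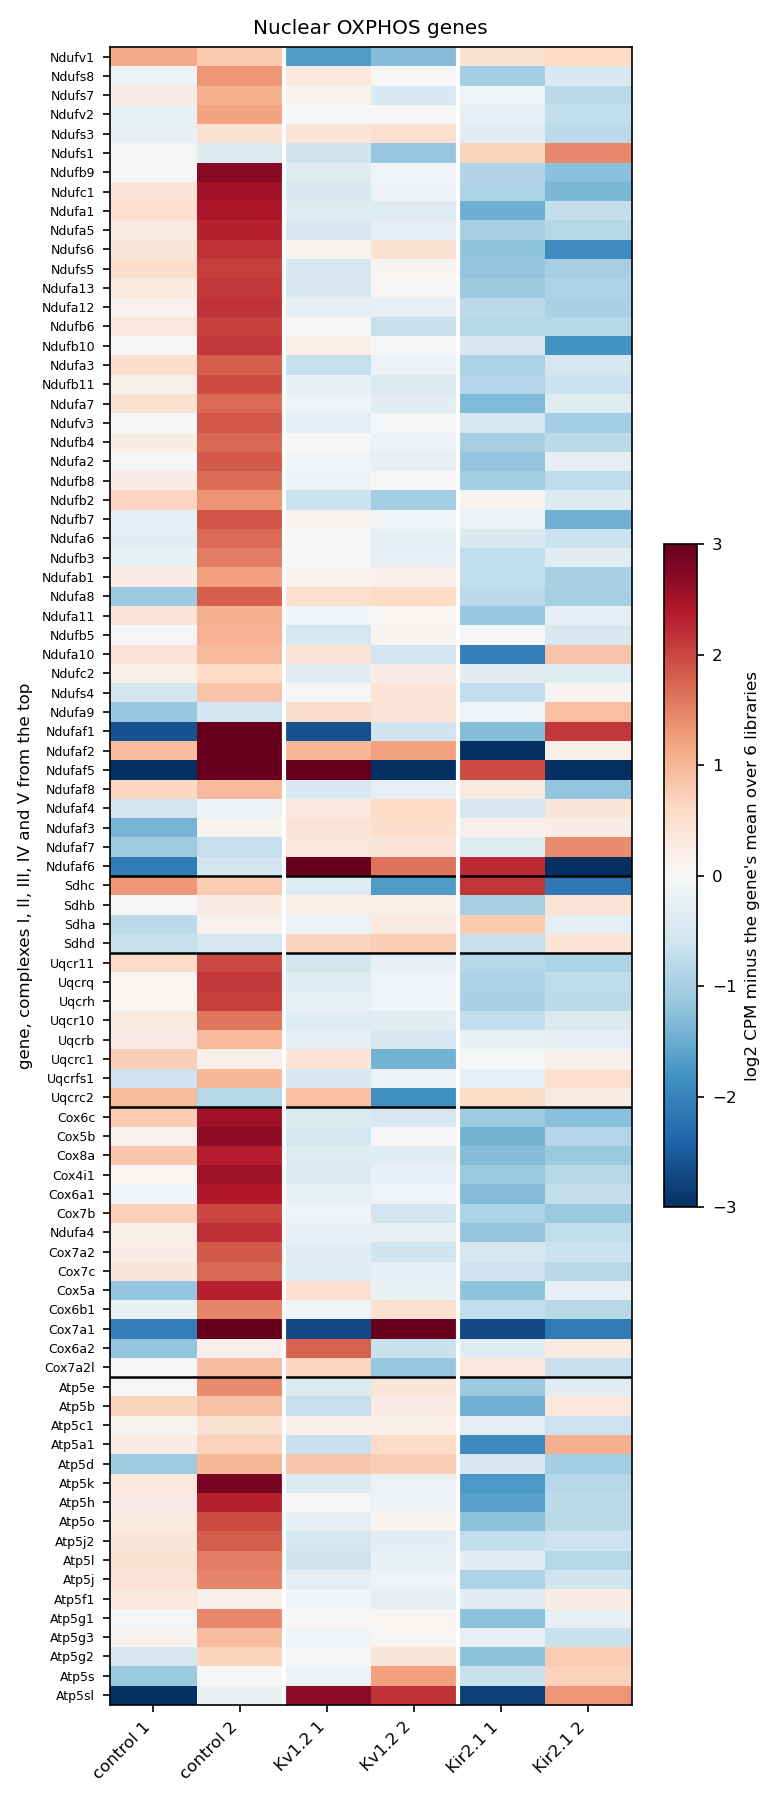
Level of tested members in the 6 libraries, as log2 CPM minus the gene's mean over the libraries (colour, clipped at 3 units to each side). Rows are genes by complex and role, columns are libraries numbered by replicate. Control replicate 2 is the highest library for 66 genes, and most accessory subunits of complex I and ubiquitous subunits of complex IV share this pattern.

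In complex I the accessory subunits, which surround the catalytic core, had the lowest median fold changes of the 3 roles. Of 29 such genes, 28 had a log2 fold change below 0 in each comparison, 8 were lower at an unadjusted p under 0.05 in Kv1.2 and 19 in Kir2.1, and the medians were -1.36 and -1.98. Ndufa1, a membrane-arm subunit needed for assembly, had 838 and 3231 CPM (control), 449 and 451 CPM (Kv1.2), and 212 and 358 CPM (Kir2.1). Both control libraries were above all others, and the log2 fold change ± SE, the SE being the size of the change over the root of edgeR's F statistic, was -2.18 ± 0.75 (Kv1.2, adjusted p = 0.394) and -2.84 ± 0.77 (Kir2.1, adjusted p = 0.521). Ndufc1, another small membrane subunit, had 456 and 1958 CPM (control), 244 and 305 CPM (Kv1.2), and 179.9 and 131 CPM (Kir2.1). Its groups did not overlap either, with log2 fold changes of -2.14 ± 0.78 (Kv1.2, adjusted p = 0.394) and -2.96 ± 0.80 (Kir2.1, adjusted p = 0.521). Ndufb2, of the distal membrane arm, stood at 229.8 and 374 CPM (control), 94.1 and 71.3 CPM (Kv1.2), and 155 and 109.8 CPM (Kir2.1). It was lowest in the Kv1.2 libraries, with log2 fold changes of -1.87 ± 0.66 (Kv1.2, adjusted p = 0.394) and -1.19 ± 0.64 (Kir2.1, adjusted p = 0.576). Without control replicate 2 the medians of the accessory subunits were -0.39 (Kv1.2) and -1.07 (Kir2.1), beside 0.13 and 0.22 over all genes.

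Ndufs6, a zinc-binding accessory subunit of the matrix arm, was the member with the smallest unadjusted p between the channel groups. It had 314 and 1105 CPM (control), 256 and 337 CPM (Kv1.2), and 106 and 66.5 CPM (Kir2.1), so that the Kir2.1 libraries lay below all others while the Kv1.2 libraries overlapped with the control. The log2 fold change was -1.26 ± 0.74 (Kv1.2, adjusted p = 0.519) and -3.04 ± 0.79 (Kir2.1, adjusted p = 0.521). Its exons share bases with Mrpl36 on the other strand, and counting by strand is not stated in the sources used here.

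Ndufa9, an accessory subunit at the junction of the matrix and membrane arms, went the other way, with 93.3 and 136 CPM (control), 294 and 269.8 CPM (Kv1.2), and 190.0 and 383 CPM (Kir2.1). Both control libraries were below all channel libraries, and the log2 fold changes were 1.30 ± 0.64 (Kv1.2, adjusted p = 0.454) and 1.32 ± 0.64 (Kir2.1, adjusted p = 0.546), which did not pass the test. Together with the assembly factors Ndufaf3 and Ndufaf7 it formed the 3 members with this order of libraries. Ndufaf3 ranged from 34.5 to 96.5 CPM in the control and 100.0 to 130.2 CPM in the channel libraries, and Ndufaf7 from 35.8 to 46.7 and from 58.2 to 200.2 CPM.

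The 7 nuclear core subunits, which carry the flavin and the iron-sulfur clusters, had medians of -0.65 and -0.69. In each comparison 5 of 7 were below 0, and 1 (Ndufv1) was lower at an unadjusted p under 0.05 in Kv1.2. Without control replicate 1 the medians were -1.25 (Kv1.2) and -1.08 (Kir2.1). Without control replicate 2 they were 0.15 and -0.38. Ndufv1, which binds NADH and the flavin, had 115 and 90.6 CPM (control), 16.3 and 21.1 CPM (Kv1.2), and 71.4 and 78.6 CPM (Kir2.1). Its Kv1.2 libraries were below all others and its Kir2.1 libraries close to the control, with log2 fold changes of -2.46 ± 0.87 (Kv1.2, adjusted p = 0.394) and -0.46 ± 0.82 (Kir2.1, adjusted p = 0.924). Ndufs1, the largest iron-sulfur subunit, had 40.4 and 29.8 CPM (control), 26.3 and 17.9 CPM (Kv1.2), and 63.2 and 109 CPM (Kir2.1), and here the Kir2.1 libraries were the highest.

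Assembly factors of complex I act on the growing complex and are not part of it. Of the 8 tested, 4 had a log2 fold change below 0 in each comparison and 0 had an unadjusted p under 0.05, with medians of 0.20 and -0.37. Without control replicate 1 the medians were -0.58 (Kv1.2) and -0.68 (Kir2.1). Without control replicate 2 they were 1.34 and 1.51 over the 7 factors that still reached the minimum. Several were near the minimum in some libraries, such as Ndufaf1 with 0 and 36.8 CPM (control), 0 and 0.57 CPM (Kv1.2), and 0.272 and 4.71 CPM (Kir2.1). Ndufaf6 had 1.29 and 4.07 CPM (control), 96.4 and 19.3 CPM (Kv1.2), and 29.6 and 0 CPM (Kir2.1), and its Kir2.1 replicates lay at opposite ends. No fold change is given for these 2 genes.

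**Figure D3:**
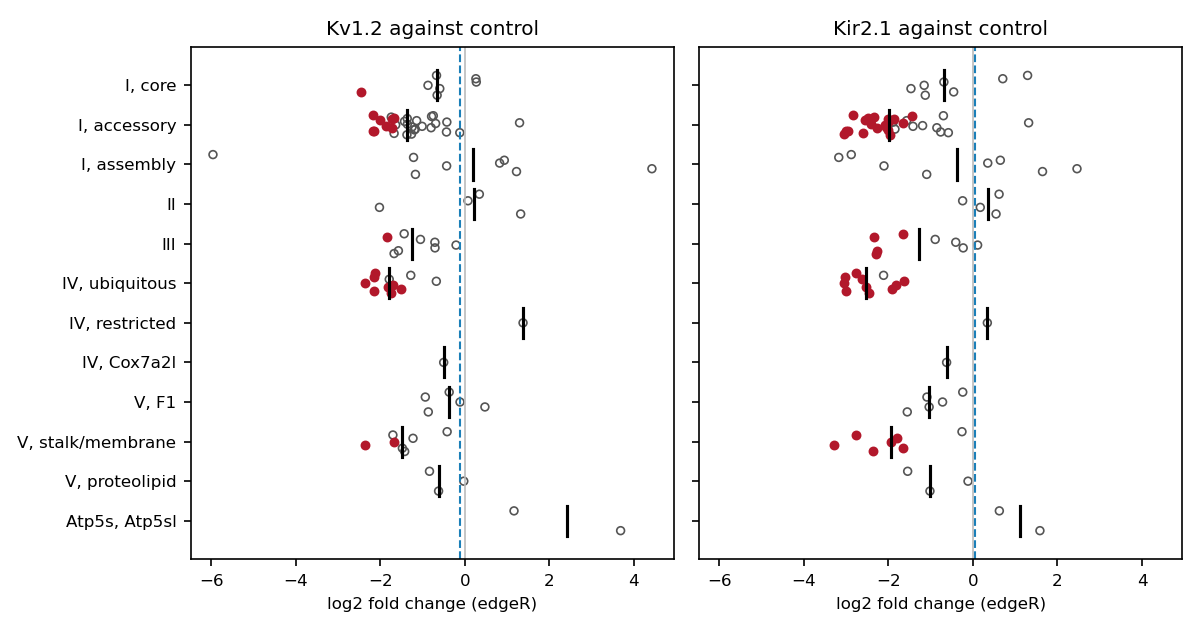
Log2 fold change from edgeR (x axis) of the tested members by complex and role (rows), for Kv1.2 (left) and Kir2.1 (right) against the control. Each circle is a gene, filled at an unadjusted p under 0.05, black bars are row medians and the dashed line is the median of all genes tested. Cox7a1, which had at most 1 count in 4 libraries, is not drawn. The medians of accessory subunits of complex I, ubiquitous subunits of complex IV and stalk and membrane subunits of complex V lie furthest to the left, while single genes of other rows, such as Ndufv1 among the core subunits for Kv1.2, lie as far.

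Complex II, the only complex made wholly from nuclear genes, had medians above 0, at 0.21 and 0.36. Of its 4 genes, 3 had a log2 fold change above 0 in each comparison and 0 had an unadjusted p under 0.05. Without control replicate 1 the medians of these 4 genes were -0.15 (Kv1.2) and 0.25 (Kir2.1). Without control replicate 2 they were 0.46 and 0.23. Sdha, the flavoprotein that oxidizes succinate, had 37.5 and 70.3 CPM (control), 57.4 and 79.5 CPM (Kv1.2), and 112 and 53.9 CPM (Kir2.1), with overlapping groups. Sdhb, the iron-sulfur subunit, had 488 and 599.7 CPM (control), 577 and 569.6 CPM (Kv1.2), and 250.2 and 669 CPM (Kir2.1), again with overlap. Sdhd, a membrane anchor, had 182 and 209 CPM (control), 476 and 501 CPM (Kv1.2), and 182 and 389 CPM (Kir2.1). It was higher in both Kv1.2 libraries than in any control library, while the first Kir2.1 library was level with the control, and the log2 fold changes were 1.32 ± 0.61 (Kv1.2, adjusted p = 0.436) and 0.55 ± 0.60 (Kir2.1, adjusted p = 0.838). Sdhc, the other anchor, was low throughout, with 13.5 and 9.34 CPM (control), 4.09 and 1.55 CPM (Kv1.2), and 24.7 and 1.09 CPM (Kir2.1).

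Complex III had its lowest fold changes in the small subunits. All 8 genes had a log2 fold change below 0 for Kv1.2 and 7 for Kir2.1, 1 and 4 had an unadjusted p under 0.05, and the medians were -1.24 and -1.28. Uqcr11, the smallest subunit, had 1387 and 3667 CPM (control), 631 and 782 CPM (Kv1.2), and 507 and 489 CPM (Kir2.1), without overlap, and log2 fold changes of -1.84 ± 0.62 (Kv1.2, adjusted p = 0.394) and -2.34 ± 0.63 (Kir2.1, adjusted p = 0.521). Uqcrq, known as the ubiquinone-binding protein of the complex, had 779 and 3271 CPM (control), 585 and 686 CPM (Kv1.2), and 389 and 441 CPM (Kir2.1), and log2 fold changes of -1.67 ± 0.73 (Kv1.2, adjusted p = 0.425) and -2.29 ± 0.75 (Kir2.1, adjusted p = 0.521). The hinge protein Uqcrh, which helps cytochrome c to bind, had 343 and 1386 CPM (control), 281 and 301 CPM (Kv1.2), and 168 and 190.2 CPM (Kir2.1), and log2 fold changes of -1.57 ± 0.74 (Kv1.2, adjusted p = 0.441) and -2.27 ± 0.76 (Kir2.1, adjusted p = 0.521). Control libraries were above all channel libraries in each of these genes and in Uqcr10 and Uqcrb. Uqcr10, a small transmembrane subunit, had log2 fold changes of -1.43 ± 0.61 (Kv1.2) and -1.66 ± 0.62 (Kir2.1). The large core protein Uqcrc1 had 147 and 97.2 CPM (control), 117 and 32.8 CPM (Kv1.2), and 86.5 and 97.7 CPM (Kir2.1), and the catalytic Rieske protein Uqcrfs1 had 80.0 and 243 CPM (control), 89.9 and 108 CPM (Kv1.2), and 103 and 172 CPM (Kir2.1). In both of these the groups overlapped. Uqcr11 and Uqcrb have a near-identical pseudogene copy in the annotation, so that reads may be lost or divided between the copies.

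Complex IV had the lowest medians of the 5 complexes, -1.77 and -2.49 over 14 tested members. Of its 11 ubiquitous subunits, among them Ndufa4, which is named for complex I but is a subunit of complex IV, all had a log2 fold change below 0 in both comparisons, 8 were lower at an unadjusted p under 0.05 in Kv1.2 and 10 in Kir2.1, and the medians were -1.79 and -2.52. Cox8a, the ubiquitous form of subunit 8, had 1779 and 5223 CPM (control), 775 and 796 CPM (Kv1.2), and 409 and 468 CPM (Kir2.1). Control libraries were above all others and the Kir2.1 libraries below the Kv1.2 libraries, and the log2 fold changes were -2.16 ± 0.65 (Kv1.2, adjusted p = 0.394) and -3.0 ± 0.67 (Kir2.1, adjusted p = 0.460). Cox6c, a small transmembrane subunit, had 1508 and 5085 CPM (control), 659 and 628 CPM (Kv1.2), and 427 and 374 CPM (Kir2.1), in the same order of groups. Its log2 fold changes were -2.36 ± 0.69 (Kv1.2, adjusted p = 0.394) and -3.04 ± 0.71 (Kir2.1, adjusted p = 0.491). Cox7b, needed for assembly of the complex, had 706 and 1705 CPM (control), 393 and 289 CPM (Kv1.2), and 225 and 196 CPM (Kir2.1), again in this order, with log2 fold changes of -1.82 ± 0.63 (Kv1.2, adjusted p = 0.394) and -2.52 ± 0.65 (Kir2.1, adjusted p = 0.521). Over both channel groups Cox8a, Cox6c and Cox7b had the smallest p-values of all members, with log2 fold changes ± SE of -2.58 ± 0.52, -2.70 ± 0.55 and -2.17 ± 0.51 (adjusted p = 0.157, 0.158 and 0.196). Without control replicate 2 the medians of the 11 ubiquitous subunits were -0.51 (Kv1.2) and -1.15 (Kir2.1), beside 0.13 and 0.22 over all genes.

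Cox4i1, the regulatory subunit at which ATP binds, had 1089 and 6072 CPM (control), 774 and 882 CPM (Kv1.2), and 479 and 579 CPM (Kir2.1), and log2 fold changes of -2.11 ± 0.82 (Kv1.2, adjusted p = 0.403) and -2.76 ± 0.84 (Kir2.1, adjusted p = 0.521). Its control replicates differed from each other by more than replicate 1 did from any channel library. The same held for Cox6a1, with 1114 and 6308 CPM (control), 1033 and 1118 CPM (Kv1.2), and 480.5 and 727 CPM (Kir2.1) and log2 fold changes of -1.79 ± 0.83 (Kv1.2) and -2.62 ± 0.85 (Kir2.1). In Cox5a, a subunit on the matrix side, control replicate 1 lay among the channel libraries, with 92.7 and 1048 CPM (control), 291 and 179 CPM (Kv1.2), and 89.5 and 174 CPM (Kir2.1). Ndufa4 had 1157 and 4629 CPM (control), 858 and 865 CPM (Kv1.2), and 446 and 609.8 CPM (Kir2.1), without overlap, and log2 fold changes of -1.75 ± 0.73 (Kv1.2) and -2.45 ± 0.75 (Kir2.1).

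Several subunits of complex IV have forms restricted to some tissues. In TPM, Cox6a1 and Cox7a2 were above the restricted forms Cox6a2 and Cox7a1 in every library, and the other restricted forms did not reach the count minimum. Cox7a2, the ubiquitous form of subunit 7a, had 837 and 2561 CPM (control), 569 and 474 CPM (Kv1.2), and 503 and 456 CPM (Kir2.1), and log2 fold changes of -1.70 ± 0.66 (Kv1.2) and -1.82 ± 0.66 (Kir2.1). Cox7a1, the form of heart and skeletal muscle, had 1 and 877 counts (control), 0 and 128 counts (Kv1.2), and 0 and 1 counts (Kir2.1), so that single libraries carried it. Cox6a2, another form of heart and skeletal muscle, stood at 18.3 and 46.5 CPM (control), 142 and 26.2 CPM (Kv1.2), and 32.2 and 49.8 CPM (Kir2.1), and was highest in a Kv1.2 library. Cox6b1, the ubiquitous form of subunit 6b, had 765 and 2488 CPM (control), 819 and 1222 CPM (Kv1.2), and 538 and 505 CPM (Kir2.1), and control replicate 1 lay below both Kv1.2 libraries. Cox7a2l, which links complexes III and IV in supercomplexes, had 106 and 211 CPM (control), 174 and 50.5 CPM (Kv1.2), and 137 and 68.6 CPM (Kir2.1), with overlapping groups.

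**Figure D4:**
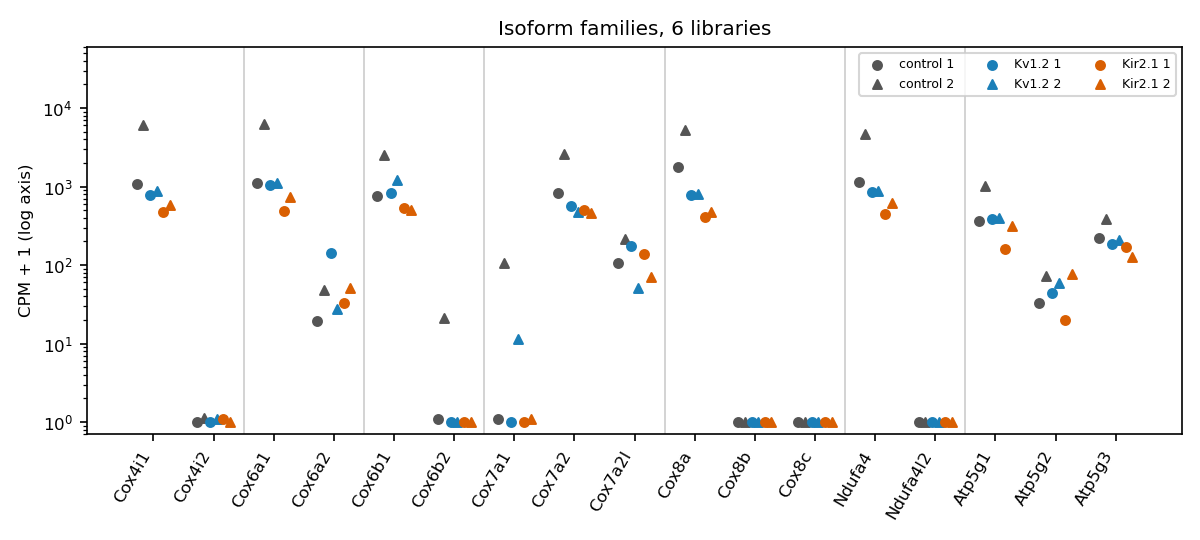
Level (CPM + 1, log axis) of the members of 7 isoform families of complexes IV and V in the 6 libraries. Circles are replicate 1 and triangles replicate 2 of each group, and vertical lines separate families. Points at 1 have no count. CPM is not scaled by gene length, so heights compare libraries within a gene. The triangle of control replicate 2 is the highest point of Cox4i1, Cox6a1, Cox6b1, Cox7a2, Cox8a and Ndufa4.

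In complex V the stalk and membrane subunits had the lowest median fold changes. All 7 had a log2 fold change below 0 in both comparisons, 2 were lower at an unadjusted p under 0.05 in Kv1.2 and 6 in Kir2.1, and the medians were -1.48 and -1.95. Atp5k, subunit e, which takes part in dimerization of the synthase, had 345 and 1978 CPM (control), 208 and 244 CPM (Kv1.2), and 84 and 153 CPM (Kir2.1), without overlap, and log2 fold changes of -2.36 ± 0.88 (Kv1.2, adjusted p = 0.396) and -3.29 ± 0.92 (Kir2.1, adjusted p = 0.521). Atp5h, subunit d of the peripheral stalk, had 575 and 2429.6 CPM (control), 483 and 441 CPM (Kv1.2), and 157 and 284 CPM (Kir2.1), and log2 fold changes of -1.70 ± 0.78 (Kv1.2, adjusted p = 0.432) and -2.77 ± 0.81 (Kir2.1, adjusted p = 0.521). Atp5o, the stalk protein that confers sensitivity to oligomycin, had 318 and 1007 CPM (control), 212 and 282 CPM (Kv1.2), and 111 and 149 CPM (Kir2.1). Its groups did not overlap, and its log2 fold changes were -1.42 ± 0.71 (Kv1.2, adjusted p = 0.456) and -2.35 ± 0.73 (Kir2.1, adjusted p = 0.521). The membrane subunits Atp5j2 (f) and Atp5l (g) had log2 fold changes of -1.68 ± 0.63 and -1.48 ± 0.63 for Kv1.2 and -1.95 ± 0.63 and -1.66 ± 0.63 for Kir2.1. Atp5l and Atp5h have near-identical pseudogene copies. Without control replicate 2 the medians of the 7 genes were -0.70 (Kv1.2) and -1.26 (Kir2.1), beside 0.13 and 0.22 over all genes.

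The 5 genes of the catalytic F1 part had medians of -0.37 and -1.04 and 0 at an unadjusted p under 0.05. Atp5b, the catalytic beta subunit, had 277 and 322 CPM (control), 107 and 206 CPM (Kv1.2), and 64 and 218 CPM (Kir2.1), with both control libraries above all others and log2 fold changes of -0.93 ± 0.77 (Kv1.2, adjusted p = 0.696) and -1.09 ± 0.77 (Kir2.1, adjusted p = 0.680). Atp5a1, the alpha subunit, had 102 and 140.0 CPM (control), 54.5 and 133 CPM (Kv1.2), and 23.1 and 181 CPM (Kir2.1), with overlapping groups. Atp5g1, Atp5g2 and Atp5g3 encode the same mature c subunit of the rotor ring. Atp5g1 had 359 and 1025 CPM (control), 385 and 391 CPM (Kv1.2), and 159.5 and 315 CPM (Kir2.1). Atp5g2 had 31.8 and 71.1 CPM (control), 43.3 and 57.9 CPM (Kv1.2), and 19 and 75.9 CPM (Kir2.1), and Atp5g3 had 218 and 384 CPM (control), 185 and 207 CPM (Kv1.2), and 171 and 127 CPM (Kir2.1). Only in Atp5g3 among these were the control libraries above all channel libraries, and 0 of the 3 had an unadjusted p under 0.05. Atp5s and Atp5sl carry the prefix of the synthase but encode a coupling factor and, for Atp5sl, a protein of complex I assembly in human cells, and both had log2 fold changes above 0 in each comparison.

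Kir2.1 and Kv1.2 were compared directly in the same fit. The median log2 fold change of Kir2.1 against Kv1.2 was -0.56 over the members, beside 0.13 over all genes. Of the members 70 of 87 (80.5%) were below 0, against 46.2% of all genes. This was not particular to the members. Cytosolic ribosomal protein genes had a median of -0.54 with 83.5% below 0, and mitochondrial ribosomal protein genes -0.35 with 66.2%. Only Ndufs6 was lower at an unadjusted p under 0.05 and 0 members were higher, against 2.05 and 4.02% of all genes, and after adjustment 0 members and 0% of genes passed. Ndufs6 had a log2 fold change of -1.78 ± 0.75 and Ndufv1, which was higher in Kir2.1, one of 2.01 ± 0.85 (adjusted p = 0.739 for both, edgeR). DESeq2 called 0 members in this comparison. The count of members lower at an unadjusted p under 0.05 was 10 of 87 and 8 of 85 without control replicate 1 or 2, against 2.69 and 2.97% of all genes, and 0 without Kv1.2 replicate 1 or 2, against 1.56 and 1.48%.

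Median fold changes were lower in classes of members with shorter coding sequences, a property that the rule did not use. The 21 tested members with at most 300 coding bases had medians of -1.70 (Kv1.2) and -2.27 (Kir2.1), the 41 with more than 300 and up to 600 bases -1.21 and -1.80, and the 25 with over 600 bases -0.43 and -0.41. Control libraries were above all channel libraries in 17 of the 21, 20 of the 41 and 5 of the 25, against 13.8% of all genes tested. Single members departed from this order, such as Ndufv1 with 1392 coding bases and a log2 fold change of -2.46 for Kv1.2. Across the 87 members, log2 coding length and log2 fold change had a Pearson correlation of 0.37 for Kv1.2 and 0.54 for Kir2.1. This is given as a description since all points come from the same 6 libraries. Level went with length, as log2 mean CPM had a correlation of -0.52 with log2 coding length. Its correlation with log2 fold change was -0.33 for Kv1.2 and -0.34 for Kir2.1, and the parts of length and level were not tested. Among the genes tested that have a coding length, 798 bases was the lower quartile. Other genes up to this length (2492 genes) had medians of -0.05 and -0.24, and the 69 members in that range had -1.28 and -1.87. The ratio of control replicate 2 to control replicate 1 moved with length as well, with medians of 2.998, 2.85 and 1.45 in the 3 length classes.

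**Figure D5:**
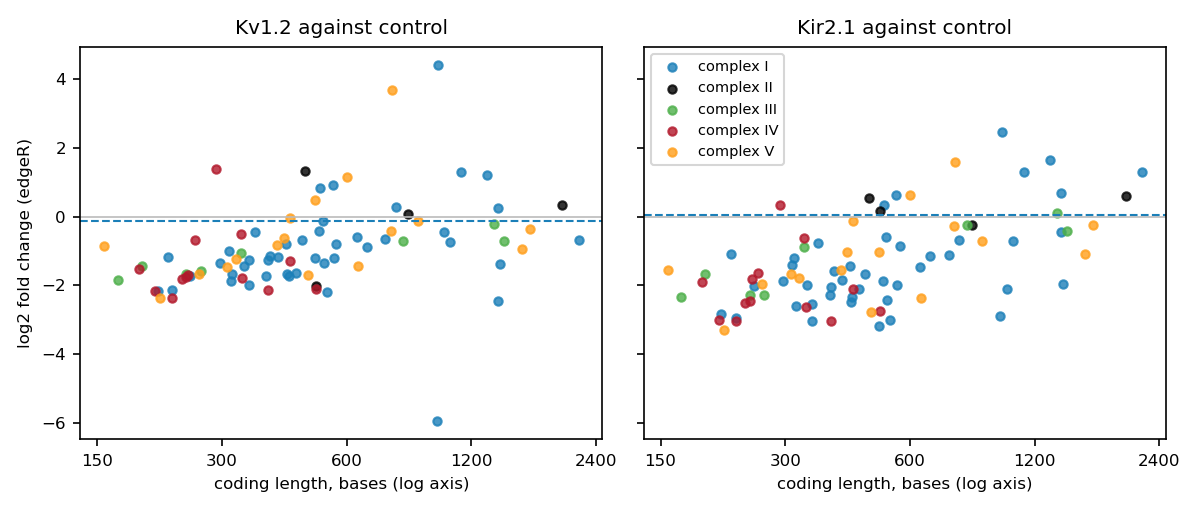
Log2 fold change from edgeR (y axis) of the tested members against coding length in bases (x axis, log scale), for Kv1.2 (left) and Kir2.1 (right) against the control. Points are genes coloured by complex and the dashed line is the median of all genes tested. Cox7a1 is not drawn. Genes with at most 300 coding bases lie almost all below 0, and genes over 600 bases lie on both sides of it.

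Pairs of members followed each other more closely in some roles than in others. Over the 6 libraries, the median Pearson correlation of log2 CPM between pairs of genes was 0.95 among the 11 ubiquitous subunits of complex IV, 0.94 among the 7 stalk and membrane subunits of complex V and 0.88 among the 29 accessory subunits of complex I. It was 0.09 among the 7 core subunits of complex I and -0.31 among the 4 genes of complex II. Cox6a1, Uqcrh and Uqcrq followed the mean of the other members most closely (r of 0.997, 0.993 and 0.989 over 6 libraries), and Ndufs1, Uqcrc2 and Ndufaf7 least (-0.49, -0.44 and -0.42). These values describe libraries among which control replicate 2 stands apart.

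Genes of the same pathway outside the rule were read from lists. All 13 mitochondrially encoded subunits had both control libraries above all channel libraries, as did 13.8% of all genes tested. Of the 13, 10 (76.9%) were lower at an unadjusted p under 0.05 in each comparison, against 8.81 and 6.15% of genes. The medians of the 13 were -3.08 and -3.15. Their share of counts was 6.998 and 14.2% (control), 1.19 and 1.27% (Kv1.2), and 1.54 and 1.19% (Kir2.1). mt-Nd4, a proton-pumping subunit of complex I, had 6146 and 14614 CPM (control), 799.9 and 948 CPM (Kv1.2), and 1045 and 844 CPM (Kir2.1), and log2 fold changes of -3.57 ± 0.65 (Kv1.2, adjusted p = 0.287) and -3.46 ± 0.64 (Kir2.1, adjusted p = 0.359). Of 5 tested subunits or partners that the symbol rule misses, 2 (40%) were lower at an unadjusted p under 0.05 in Kv1.2 and 3 (60%) in Kir2.1. Of all genes 8.81 and 6.15% were lower. The medians of the 5 were -1.26 and -1.85. Usmg5, a membrane subunit of the synthase, had 1365 and 2993 CPM (control), 360.1 and 444 CPM (Kv1.2), and 529 and 337 CPM (Kir2.1), and log2 fold changes of -2.44 ± 0.62 (Kv1.2, adjusted p = 0.394) and -2.33 ± 0.62 (Kir2.1, adjusted p = 0.521). Of 35 tested assembly factors outside the rule, 0 in Kv1.2 and 2 in Kir2.1 (5.71%) had an unadjusted p under 0.05, both lower. Of all genes 8.81 and 6.15% were lower. The medians of these factors were -0.48 and -0.74. One of them, Uqcc2, a factor for complex III, had 384 and 1089 CPM (control), 211 and 294 CPM (Kv1.2), and 108 and 144 CPM (Kir2.1), without overlap.

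Regulators of mitochondrial biogenesis did not follow the subunits as a list. The medians of the 13 tested were 0.35 and 0.15. Over all genes, 8.81 and 6.15% were lower at an unadjusted p under 0.05 and 3.23 and 3.25% were higher. Of the 13 regulators, 0 were higher and 1 (7.69%) was lower in each comparison. That gene was Ppargc1a, a coactivator that drives mitochondrial genes, with 545 and 365 counts (control), 0 and 0 counts (Kv1.2), and 1 and 2 counts (Kir2.1). With 3 counts over the Kv1.2 group as its floor, the level there was at least 408-fold lower than in the control. That of the Kir2.1 group was 364-fold lower (95% counting interval 124 to 1769). Both values cover counting error only, and the adjusted p from edgeR was 0.394 (Kv1.2) and 0.521 (Kir2.1). The same channel libraries had a low share of neuronal markers. Nrf1, a transcription factor of respiratory chain genes, had 0 and 0.239 CPM (control), 43.1 and 0.407 CPM (Kv1.2), and 25.7 and 1.45 CPM (Kir2.1), with both control libraries below all channel libraries and a wide gap between the replicates of each channel group.

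The 18 genes of the tricarboxylic acid cycle, which feeds the chain with electrons, had medians of -0.36 and -0.56. At an unadjusted p under 0.05, 1 gene was lower and 1 higher in Kv1.2 (5.56% each), against 8.81 and 3.23% of all genes. In Kir2.1, 2 were lower (11.1%, against 6.15%). Mdh2, mitochondrial malate dehydrogenase, had 208 and 263 CPM (control), 331 and 294 CPM (Kv1.2), and 65.8 and 44.6 CPM (Kir2.1), lowest in both Kir2.1 libraries, and log2 fold changes of 0.41 ± 0.59 (Kv1.2, adjusted p = 0.893) and -2.09 ± 0.61 (Kir2.1, adjusted p = 0.521). The 16 glycolytic genes had medians of -1.55 and -1.16. Of these genes, 3 (18.8%) and 1 (6.25%) were lower at an unadjusted p under 0.05, against 8.81 and 6.15% of all genes. Eno2, the neuronal enolase, had 49.1 and 63.3 CPM (control), 0.0801 and 0 CPM (Kv1.2), and 0 and 0 CPM (Kir2.1), beside the low share of neuronal markers in the same channel libraries. Cytosolic ribosomal protein genes (85 tested), which are also short, had medians of 0.07 and -0.55, and mitochondrial ribosomal protein genes (77 tested) -0.22 and -0.58.

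The 93 genes lie on 19 chromosomes and 0 on mitochondrial DNA. Exons of 32 overlap another gene, 29 of them a gene on the opposite strand, and 14 have an annotated pseudogene copy at 98% identity or more over at least 75 bases. Since the study removed multi-mapping reads, levels of these 14 genes are uncertain, and 7 pseudogene symbols that the rule left out held 1422 counts.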

How the data were processed

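After trimming, the authors' alignment was made with STAR 2.7.0f against GRCm38 of Ensembl. They removed low-quality and multi-mapping alignments with SAMtools 1.9, built a count matrix with Subread 1.6.4 and tested it with edgeR 3.24.3 in R 3.5.2, according to the study's methods and the submitters' processing notes. Each library came from at least 3000 sorted cells, with 17 cycles of cDNA and 12 cycles of library amplification and no molecular identifiers, so intervals and floors cover counting error only. Labels and methods name different sequencers and read lengths. Deposited files gave whole-number counts per gene, without normalization, for 55573 genes, which were the input of all tests. The authors also deposited TPM and FPKM scaled by TMM, used only for levels per length. Deposited CPM, and the authors' own comparisons (fold changes and p-values), were not used.

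Samples were grouped by their titles. The 12275 genes that reached 1 CPM in 2 or more libraries entered 1 model of all 6 libraries, fitted with edgeR 4.0.16 in R 4.3.3 (TMM scaling, glmQLFit and glmQLFTest, Benjamini-Hochberg over all genes tested), and 4 contrasts were tested. With 2 libraries a group, the groups share 1 estimate of the spread. Log2 CPM had a prior count of 2. Shares are percentages of the library total with 95% Wilson intervals, and a floor is 3 counts. Coordinates, coding lengths and overlaps came from GENCODE M21 (GRCm38). The members and lists were chosen with earlier results of these data known. Named were fixed core subunits and isoform families, the 3 members per complex with the smallest p in each comparison with the control, the 5 with the smallest p over both groups and between them, the highest and lowest per length, and up to 2 genes of each other list. Some of these are given only within counts, 1 is not reported here, and genes named for their order of libraries were chosen after their values were seen. Alternatives were RLE scaling, library size only, DESeq2 1.42.0, the likelihood ratio test, no count minimum, filterByExpr, only the compared groups, the replicate number as a block and each library left out. The steps were tested on simulated data.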

Additional observations from a re-analysis of the deposited data

How the results depend on the processing

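All 4 member medians kept their sign under every alternative run, while medians of single roles did not. For Kv1.2, those of complex II and of the core subunits and assembly factors of complex I, among others, changed sign without 1 of the control libraries. For Kir2.1 those of the assembly factors and of the restricted forms of complex IV did. Without control replicate 2 only 1 restricted form was left in the fit. Leaving out 1 library at a time, the median log2 fold change of all members ranged from -1.83 to -0.32 for Kv1.2 and from -2.27 to -0.74 for Kir2.1. Over both channel groups against the control it ranged from -2.03 to -0.63. In each case the ends were the fits without control replicate 1 and without control replicate 2. The count of members lower at an unadjusted p under 0.05 ranged from 0 to 52, 6 to 57, 17 to 54 and, for Kir2.1 against Kv1.2, 0 to 10. The count higher ranged from 0 to 1 in each. At an adjusted p under 0.05, 0 members passed in these fits except for 11 over both channel groups without control replicate 1, where 37 genes passed in all. In fits of all libraries DESeq2 called 1, 11 and 11 members for Kv1.2, Kir2.1 and both, the likelihood ratio test 0, 2 and 16, and the test with no count minimum (90 members) 1, 9 and 13. Over all genes these called 1286, 964 and 1228 of 12275, 723, 225 and 1097 of 12275, and 138, 122 and 263 of 39646. Lower counts fell from 20 to 8 of 86 for Kv1.2 with only the compared groups, where 9.88% of all genes were lower. For Kir2.1 against Kv1.2 they rose from 1 to 9 of 85 with only the compared groups, against 3.52% of genes. In that comparison they were 2 with no minimum, against 1.58% of genes. They were 0 there with RLE scaling, library size only and the likelihood ratio test, against 1.96, 1.65 and 4.71% of genes. Higher counts were 1 for Kv1.2 with DESeq2, no minimum or the compared groups alone, 1 for Kir2.1 and for both with library size only, and for Kir2.1 against Kv1.2 1 with RLE scaling or library size only and 2 with DESeq2. The cause of these moves was not tested. Replicate numbers did not pair the libraries, since same-numbered libraries deviated together with correlations of 0.01, -0.04 and -0.003 over 12275 genes. With the replicate block, 8 members for Kv1.2 and 0 for Kir2.1 against Kv1.2 were lower at an unadjusted p under 0.05. Of all genes 5.69 and 1.41% were. For Kir2.1 and for both, 32 and 35 members were lower, against 3.68 and 8.02% of genes. Most genes behind the 56 single-gene fold changes were named for a small p-value in these same libraries, so steady signs are no separate evidence. Among the 56, 1 changed sign in any alternative. Sdhd for Kir2.1 ranged from -0.12 without Kir2.1 replicate 2 to 0.98 across the fits that left out a library. The share of counts in members was 2.77% for Kv1.2 replicate 1 and 1.82% for Kir2.1 replicate 1 relative to the TMM-scaled size. Per kilobase of the principal transcript, a measure added after the data were seen, Ndufc2 exceeded the median of complex I by 2.25 and Sdhd that of complex II by 0.89 on the log2 scale, against 2.81 and 1.17 in TPM. Depth did not limit the shares, while the number of libraries did limit every test.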
